A study of Mus musculus with 15 samples.

Results

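The genes described here are 31 members of sterol and fatty acid synthesis: enzymes that turn acetyl-CoA into mevalonate, squalene and sterols, the SREBP regulators that control them, and enzymes that make, elongate and desaturate fatty acids. They were taken by gene symbol from the count files, where they were 31 of 26263 named genes, and all 31 passed the filter on low counts. Cells make cholesterol from acetyl-CoA through mevalonate, the isoprenoids and squalene, and neural cells depend on this route because lipoprotein cholesterol does not readily enter the brain. When sterols are abundant, INSIG proteins hold the escort protein SCAP together with the SREBP transcription factors in the endoplasmic reticulum. When sterols are scarce, SCAP carries SREBP to the Golgi, where proteases release the part that enters the nucleus and binds sterol regulatory elements, usually beside NF-Y or Sp1 sites.

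Total RNA was sequenced from neural stem and progenitor cells of the mouse dorsal telencephalon at E12.5, grown as floating neurospheres with EGF, FGF, insulin, transferrin and progesterone. The study compared loss and gain of Kat6b, which encodes a histone acetyltransferase. Wild-type cells (WT_B6, n = 3) and Kat6b-/- cells (KO_B6, n = 4) came from embryos on the C57BL/6 background. Wild-type cells (WT_FvB, n = 2) and cells with a Kat6b transgene (Tg_FvB, n = 6) came from embryos of a mixed cross of FVB with BALB/c, used because transgenic mice did not live on an inbred background. The sources used here name neither the deleted part of Kat6b nor the promoter of the transgene, and each library is labelled with 1 embryo. Sample titles call the Tg_FvB libraries knockouts, the genotype field calls them transgenic, and the count columns of Tg_FvB 5 and 6 are headed as wild types. WT_B6 1 and WT_FvB 2 carry the same litter number (844) and embryo number (5).

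Library totals ran from 12336303 to 62819028 counts. Kat6b stood at 84.2 ± 0.778 CPM (read counts scaled to library size with TMM factors; SD, n = 3) in WT_B6, 63.4 ± 2.22 (n = 4) in KO_B6, 53.1 ± 1.80 (n = 2) in WT_FvB and 242.8 ± 54.2 (n = 6) in Tg_FvB. The lowest Tg_FvB library had 139.6 CPM of Kat6b and the highest WT_FvB library 54.4 CPM, so no Tg_FvB library, 5 and 6 included, was at the wild-type level. The ordering of the groups followed the genotype field within each background, although a count over the whole gene does not show which part is missing. All 8 neural stem and progenitor markers were detected in every library, whereas 5 microglia and blood markers summed to at most 0.456 CPM, with Cx3cr1 at 0 in 13 libraries and Aif1 in 11. The 3 WT_B6 libraries were near-identical: the biological coefficient of variation of their pairs was 0.0172 to 0.0358, although the labels give them different litters. KO_B6 2 and 3 (0.0268), the 2 WT_FvB libraries (0.0316), and Tg_FvB 1 with 2 (0.0415) and 2 with 3 (0.0338) were alike too, while the other knockout pairs differed by 0.115 to 0.166. Pairs called near-identical here are those under 0.05; they still differed by more than sampling noise (chi-square per degree of freedom from 2.07 upwards), so each library was kept, and the results are also given with such libraries summed. Nothing in the labels shows that cultures were grown independently, so the p-values measure the spread between these libraries, which may be partly technical.

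Promoter sequences of the members were read from RefSeq on GRCm38, the assembly of mm10, and 24 of the 31 members had an entry. The window is the 250 bases before the start site, read 5′ to 3′ on the gene's strand. Hmgcs1 (the synthase that makes HMG-CoA), Msmo1 (a methyl sterol oxidase) and Srebf2 (which encodes SREBP2) are shown because they were the members whose window held the letters TCACNCCA, taken here as the core of a sterol regulatory element. Idi1 (isopentenyl diphosphate isomerase) is shown as a member that was clearly higher in the knockout without those letters, and Fads2 (a desaturase) as a member that was lower. Capitals mark matches on either strand to TCACNCCA, to CCAAT (the NF-Y box), to GGGCGG (the Sp1 box) or to CACGTG (the E-box), and overlapping matches run together. The windows are chr13:119690101-119690350 (plus strand), chr8:64733579-64733828 (minus), chr15:82147019-82147268 (plus), chr13:8885356-8885605 (plus) and chr19:10101504-10101753 (minus).
Hmgcs1: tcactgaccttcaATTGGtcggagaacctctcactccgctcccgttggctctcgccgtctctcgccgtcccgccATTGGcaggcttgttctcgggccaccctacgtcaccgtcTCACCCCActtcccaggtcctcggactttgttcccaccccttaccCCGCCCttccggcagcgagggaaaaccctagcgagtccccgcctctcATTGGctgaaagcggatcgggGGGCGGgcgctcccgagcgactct
Msmo1: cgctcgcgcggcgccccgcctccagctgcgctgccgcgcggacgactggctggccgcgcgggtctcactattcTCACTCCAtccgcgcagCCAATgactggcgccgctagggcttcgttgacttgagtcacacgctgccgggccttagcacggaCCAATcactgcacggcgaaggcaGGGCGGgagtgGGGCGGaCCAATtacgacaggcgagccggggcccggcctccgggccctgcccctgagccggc
Srebf2: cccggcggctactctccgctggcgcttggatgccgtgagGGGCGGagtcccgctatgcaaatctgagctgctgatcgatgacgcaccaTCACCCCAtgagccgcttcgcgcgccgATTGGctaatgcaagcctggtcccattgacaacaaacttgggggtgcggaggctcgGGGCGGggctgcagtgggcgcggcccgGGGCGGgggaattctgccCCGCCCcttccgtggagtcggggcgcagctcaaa
Idi1: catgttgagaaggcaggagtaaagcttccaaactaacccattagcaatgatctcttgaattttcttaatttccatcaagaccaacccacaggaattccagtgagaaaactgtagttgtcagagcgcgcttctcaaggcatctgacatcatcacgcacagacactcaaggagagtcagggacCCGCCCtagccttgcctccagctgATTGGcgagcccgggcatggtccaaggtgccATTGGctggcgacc
Fads2: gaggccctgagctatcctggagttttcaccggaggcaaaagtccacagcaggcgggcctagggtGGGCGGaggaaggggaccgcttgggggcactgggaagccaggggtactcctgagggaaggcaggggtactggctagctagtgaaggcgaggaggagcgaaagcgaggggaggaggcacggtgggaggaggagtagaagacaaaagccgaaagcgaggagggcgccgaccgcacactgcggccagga

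In Hmgcs1 the element core lay 137 to 130 bases before the start site, with 3 CCAAT boxes and 2 Sp1 boxes in the same window. In Msmo1 it lay 177 to 170 bases before the start site, and the first of 3 CCAAT boxes began 160 bases before it. In Srebf2 it lay 162 to 155 bases before the start site, with 1 CCAAT box and 4 Sp1 boxes. The window of Idi1 held 2 CCAAT boxes in the last 45 bases before the start site, and that of Fads2 held 1 Sp1 box and no CCAAT box.

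Over all members with an entry, CCAAT was present in 18 of 24 (75.0%), against 37.5% of the 27025 genes in the table. Of the members higher in the knockout, 14 of 18 had it, as did 4 of the 5 that were not called and 0 of 1 that was lower. GGGCGG was present in 20 of 24 members (83.3%, against 35.4% of all genes), TCACNCCA in 3 of 24 (4.2% of all genes) and CACGTG in 5 of 24 (20.8%, against 6.9%). CACGTG was found in Hsd17b7, Sc5d, Dhcr7, Insig1 and Scap. All 5 were higher in the knockout, as were 18 of the 24 members with an entry. The 24 members had 28 windows, since Pmvk, Dhcr7 and Scap have several start sites in the table, and a member counts as holding a motif if any of its windows does. The 27025 genes were not limited to those tested here, and no share over the tested genes alone was computed. A match describes letters in this window and is not evidence of binding.

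Per kilobase of gene length, member levels in WT_B6 spanned a 156.8-fold range. Scd2, the main stearoyl-CoA desaturase of the brain, was highest at 1185 CPM per kilobase, above 99.9% of the genes tested. Hmgcs1 followed at 664.4 CPM per kilobase, then the desaturases Fads2 at 363.5, Fads1 at 255.3 and Scd1 at 174.6. Within the sterol route, the level per length was 45.6 for mevalonate kinase (Mvk), 14.5 for Idi1, 112.6 for farnesyl diphosphate synthase (Fdps), 111.9 for squalene epoxidase (Sqle) and 167.7 for Msmo1. The lowest members were Acaca (acetyl-CoA carboxylase) at 11.6, Ebp (a sterol isomerase) at 10.1 and Hsd17b7 (a ketosteroid reductase) at 7.56 CPM per kilobase. Fdps and Sqle, next to each other in this order, overlapped in their spread over libraries on this scale.

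**Figure D1:**
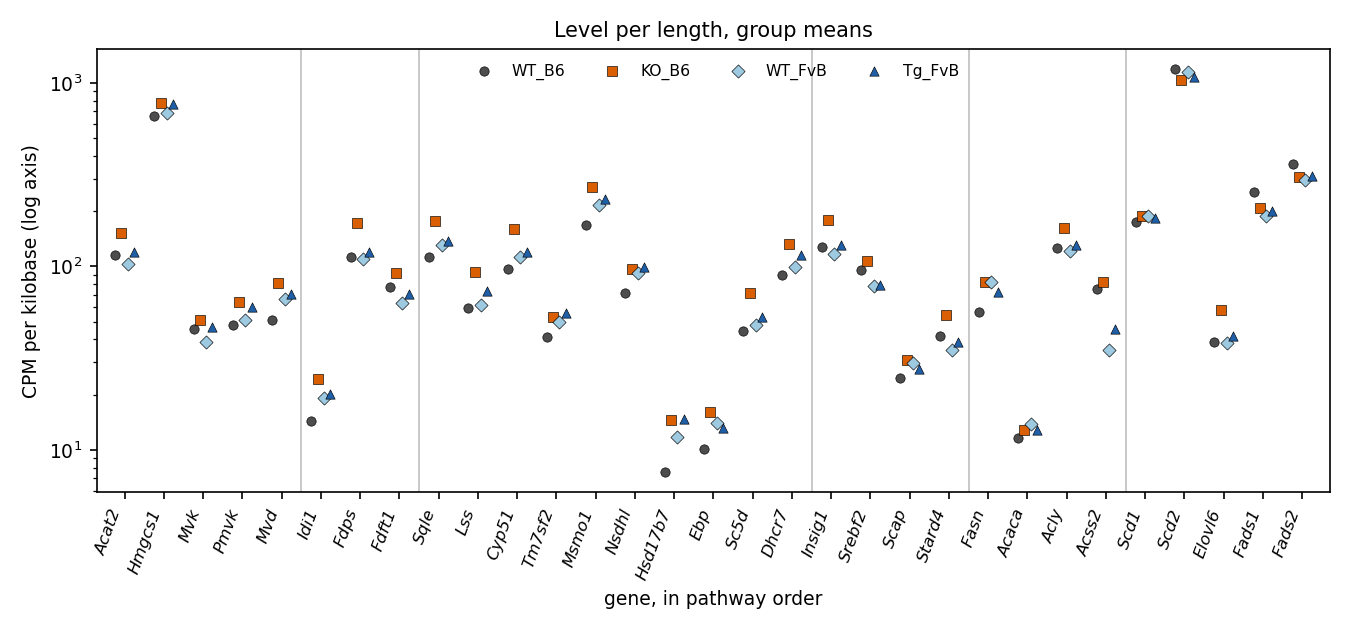
Group mean level of each of the 31 members in CPM per kilobase of gene length (log axis), in pathway order, for WT_B6 (circles), KO_B6 (squares), WT_FvB (diamonds) and Tg_FvB (triangles); grey lines separate the branches. Scd2 is the highest member in all 4 groups, and Hsd17b7 is the lowest in WT_B6 at 7.56.

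In Kat6b knockout cells the sterol route was higher along nearly its whole length. Of the 18 enzymes from acetyl-CoA to sterols, 15 rose and 0 fell. Their log2 fold change had a median of 0.63, and in 16 of the 18 every knockout library lay above every WT_B6 library. The 4 genes of SREBP regulation and sterol transfer were all called higher (median 0.35). Of these, Srebf2 overlapped between the groups and was called in only 4 of 16 alternative fits. The 9 fatty acid genes split into 3 that rose (Fasn, Acly and Elovl6) and 3 that fell (Scd2, Fads1 and Fads2). A gene was called by edgeR's quasi-likelihood test at an adjusted p under 0.05 over 15261 genes. Among all members 22 were called higher and 3 lower, where 24.8% of all genes tested were called higher and 20.9% lower. The median log2 fold change was 0.42 over the members and 0.02 over all genes. Without overlap between the groups, 22 members were above and 3 below, against 29.3% and 27% of all genes. In bulk RNA, fewer cells of a type and less RNA per cell cannot be told apart.

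These calls rest on treating the near-identical libraries as separate. With them summed (1 WT_B6, 3 KO_B6, 1 WT_FvB and 4 Tg_FvB samples), edgeR called 0 members higher or lower in the knockout, where 0% of 15958 genes were called higher and 0.0313% lower. There the median log2 fold change of the members was 0.36, all 31 kept their direction, and 14 had an unadjusted p under 0.05, while edgeR's adjusted p ran from 0.111 (Hsd17b7) to 0.938 (Acaca). The lone wild-type sample is then assumed to vary like the other groups, and the median standard error of the members rises from 0.0954 to 0.190.

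**Figure D2:**
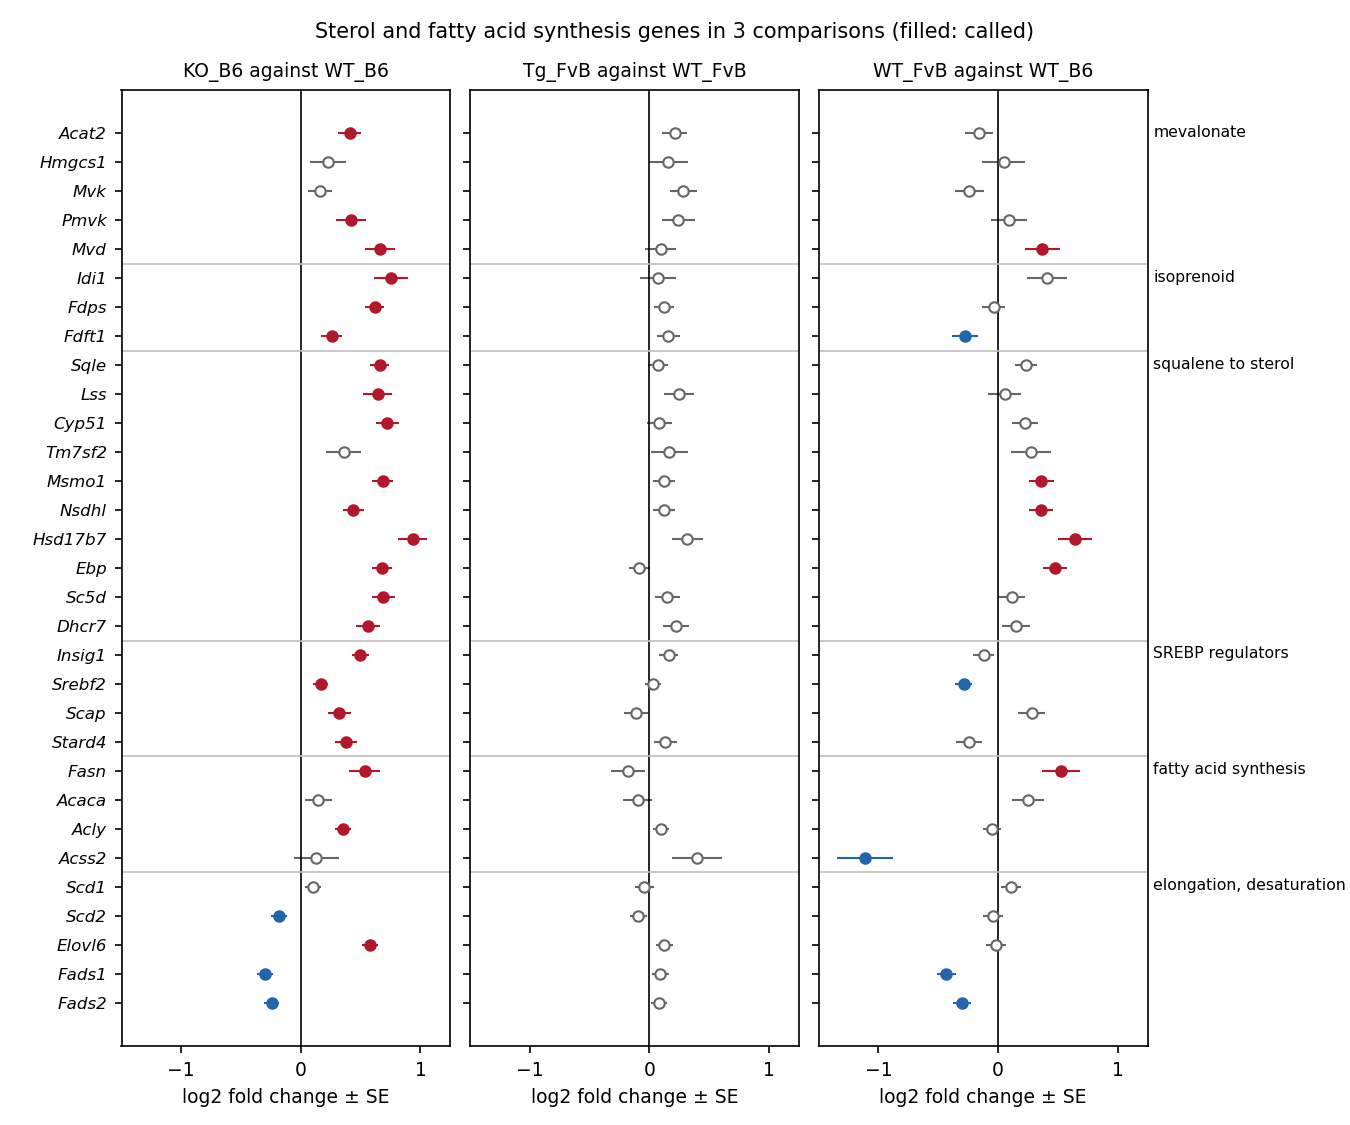
Log2 fold change ± standard error of each member in 3 edgeR comparisons, in pathway order; filled points passed an adjusted p under 0.05 (red higher, blue lower) and open points did not. In the knockout panel 22 points are red and 3 are blue, the transgene panel has 0 filled points, and the panel of the 2 wild types has 6 red and 5 blue.

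The first enzymes make mevalonate and convert it to the isoprenoid unit. Acat2, the cytosolic thiolase that joins acetyl-CoA units, measured 239.7, 240.7 and 236.0 CPM in WT_B6 and 326.1, 338.8, 341.3 and 261.7 CPM in KO_B6 1 to 4. The groups did not overlap, and the fold change was 1.33 (log2 0.41 ± 0.10, edgeR adjusted p = 0.0034). Hmgcs1, the next enzyme, measured 2187, 2172 and 2184 CPM in WT_B6 and 3381, 2397, 2451 and 1975 CPM in KO_B6. KO_B6 4 lay below the wild types and KO_B6 1 far above them, and the difference (log2 0.23 ± 0.15, edgeR adjusted p = 0.242) did not pass. Mvk, at 75.6 ± 2.41 CPM (SD, n = 3) against 84.6 ± 9.82 (n = 4), did not pass either (edgeR adjusted p = 0.21). Phosphomevalonate kinase (Pmvk, log2 0.42) rose, from 72.3 ± 1.44 to 96.5 ± 10.7 CPM. Pmvk was lost with litter as a covariate (adjusted p = 0.0595) and without WT_B6 4 (0.0632). Mevalonate diphosphate decarboxylase (Mvd), which makes the isoprenoid unit, measured 99.4, 93.2 and 93.7 CPM in WT_B6 and 176.4, 155.4, 155.5 and 116.2 CPM in KO_B6. All 4 knockout libraries of Mvd were above the wild types (log2 0.66 ± 0.12, edgeR adjusted p = 5.71e-04).

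All 3 enzymes of the isoprenoid steps rose. Idi1, which interconverts the isoprenoid units, measured 39.9, 41.1 and 43.5 CPM in WT_B6 and 85.6, 65.5, 71.4 and 57.6 CPM in KO_B6. No knockout library overlapped the wild types (log2 0.75 ± 0.14, edgeR adjusted p = 6.33e-04). Fdps measured 163.4, 167.9 and 162.1 CPM in WT_B6 and 258.1, 273.7, 264.6 and 212.3 CPM in KO_B6, again with no overlap (log2 0.62 ± 0.08, edgeR adjusted p = 4.1e-05). Fdft1, squalene synthase, moved less, from 220.6 ± 2.22 to 263.8 ± 30.0 CPM (log2 0.26, edgeR adjusted p = 0.0283). Its call was lost in 8 of 16 alternative fits, including that with litter as a covariate (adjusted p = 0.0793) and each that left out WT_B6 1 (adjusted p = 0.0638), WT_B6 2 (0.112), WT_B6 4 (0.104), KO_B6 1 (0.123), KO_B6 2 (0.0872) or KO_B6 3 (0.0766).

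The squalene-to-sterol enzymes formed the branch with the highest median log2 fold change (0.67), and 9 of its 10 members rose. Sqle, which oxidises squalene, measured 303.3, 310.7 and 308.3 CPM in WT_B6 and 503.8, 513.2, 505.6 and 419.6 CPM in KO_B6 (log2 0.66 ± 0.08, edgeR adjusted p = 3.13e-05). Lanosterol synthase (Lss) measured 189.5, 181.8 and 184.0 CPM against 339.7, 295.1, 287.9 and 232.5 CPM (log2 0.64 ± 0.12, edgeR adjusted p = 5.46e-04). Cyp51, the lanosterol demethylase, measured 408.4, 423.0 and 428.6 CPM against 721.2, 719.3, 726.9 and 608.2 CPM (log2 0.72 ± 0.10, edgeR adjusted p = 4.7e-05). In all 3 genes KO_B6 4 was the lowest knockout library and still lay above every wild type.

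Hsd17b7, which reduces the ketone left after a methyl group is removed, had the largest fold change of the members. It measured 32.5, 34.1 and 37.1 CPM in WT_B6 and 71.4, 66.2, 66.1 and 61.6 CPM in KO_B6. The groups stood far apart, and the mean was 1.92-fold higher (log2 0.94 ± 0.12, edgeR adjusted p = 4.13e-05). Msmo1 measured 299.6, 310.6 and 307.5 CPM in WT_B6 and 498.0, 506.0, 507.4 and 454.5 CPM in KO_B6 (log2 0.68 ± 0.09, edgeR adjusted p = 4.1e-05). Nsdhl, the decarboxylating dehydrogenase of the same demethylation, rose from 158.4 ± 3.01 to 214.7 ± 11.5 CPM (log2 0.44). These 3 genes thus moved together without overlap between genotypes.

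Ebp, the isomerase that follows, measured 17.1, 17.3 and 18.4 CPM in WT_B6 and 25.9, 31.5, 29.1 and 26.1 CPM in KO_B6 (log2 0.68 ± 0.08, edgeR adjusted p = 3.23e-05). Sc5d, the sterol desaturase, rose from 99.5 ± 5.55 to 160.7 ± 18.2 CPM (log2 0.69), and Dhcr7, which reduces dehydrocholesterol to cholesterol, from 252.1 ± 12 to 371.7 ± 23.4 CPM (log2 0.56). Both had every knockout library above every wild type. Tm7sf2, a sterol reductase whose reaction can also be done by the lamin B receptor, was the branch's exception, at 61.0 ± 1.86 against 78.2 ± 12.7 CPM (log2 0.36, edgeR adjusted p = 0.0541). It was called in 4 of 16 alternative fits, among them that without KO_B6 4 (log2 0.43, adjusted p = 0.0289).

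Among the regulators, Insig1, the retention factor that is itself an SREBP target, measured 338.8, 332.7 and 337.4 CPM in WT_B6 and 502.7, 481.8, 490.0 and 424.9 CPM in KO_B6. The groups did not overlap (log2 0.50 ± 0.07, edgeR adjusted p = 1.07e-04). Stard4, a sterol transfer protein, rose from 124.2 ± 3.30 to 161.6 ± 21.5 CPM (log2 0.38), and Scap from 105.5 ± 4.68 to 131.8 ± 14.3 CPM (log2 0.32). Scap was lost without WT_B6 2 (adjusted p = 0.0679) or WT_B6 4 (0.0725). Srebf2 measured 461.0, 422.5 and 423.2 CPM in WT_B6 and 470.6, 514.6, 506.8 and 460.8 CPM in KO_B6. KO_B6 4 was level with WT_B6 1, so the groups overlapped, and the small rise (log2 0.16 ± 0.06, edgeR adjusted p = 0.0363) was called in 4 of 16 alternative fits. The Srebf2 call was lost without WT_B6 2 (adjusted p = 0.211), WT_B6 4 (0.208), KO_B6 1 (0.058), KO_B6 2 (0.178) or KO_B6 3 (0.162), and with RLE (0.0696) or upper-quartile scaling (0.0773).

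Of the 4 fatty acid synthesis genes 2 rose, and of the 5 elongation and desaturation genes 1 rose and 3 fell. Acly, which supplies cytosolic acetyl-CoA from citrate, rose from 559.1 ± 4.59 to 713.1 ± 57.8 CPM (log2 0.35). Fasn, fatty acid synthase, measured 586.3, 550.1 and 556.7 CPM in WT_B6 and 685.2, 920.2, 906.0 and 753.8 CPM in KO_B6 (log2 0.53 ± 0.13, edgeR adjusted p = 0.00457). KO_B6 1, the highest knockout library for Idi1 and Hmgcs1, was the lowest for Fasn. Elovl6, which elongates palmitate, measured 226.3, 230.8 and 234.3 CPM in WT_B6 and 321.0, 360.4, 365.1 and 327.5 CPM in KO_B6 (log2 0.58 ± 0.07, edgeR adjusted p = 2.37e-05). Acaca, at 104.7 ± 3.04 against 115.7 ± 17.7 CPM (edgeR adjusted p = 0.315), and Acss2, which makes acetyl-CoA from acetate, at 213.6 ± 3.58 against 233.9 ± 33.4 CPM (edgeR adjusted p = 0.599), did not pass.

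Fads1 and Fads2, the desaturases of polyunsaturated fatty acids, fell. Fads1 measured 891.0, 886.1 and 872.7 CPM in WT_B6 and 744.8, 741.4, 720.4 and 664.0 CPM in KO_B6, and every knockout library lay below (log2 -0.30 ± 0.07, edgeR adjusted p = 0.00187). Fads2, also on chromosome 19, measured 584.8, 524.3 and 535.3 CPM against 489.6, 478.5, 455.7 and 425.8 CPM, also without overlap (log2 -0.25 ± 0.06, edgeR adjusted p = 0.00515). Scd2 fell from 6461 ± 137 to 5687 ± 371 CPM (log2 -0.18, edgeR adjusted p = 0.0368). Scd2 lost its call with litter as a covariate (adjusted p = 0.147) and without WT_B6 1 (0.117), WT_B6 4 (0.0506) or KO_B6 4 (0.0863). Scd1 stood at 844.6 ± 3.03 against 906.1 ± 94.4 CPM (edgeR adjusted p = 0.26) and was called higher without KO_B6 4 (log2 0.17, adjusted p = 0.0122). Scd1 and Scd2 have close copies in Scd3 and Scd4, so reads shared between them make these values uncertain. Whether the counts used strand is not given either, so reads of any overlapping gene on the other strand cannot be told apart.

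**Figure D3:**
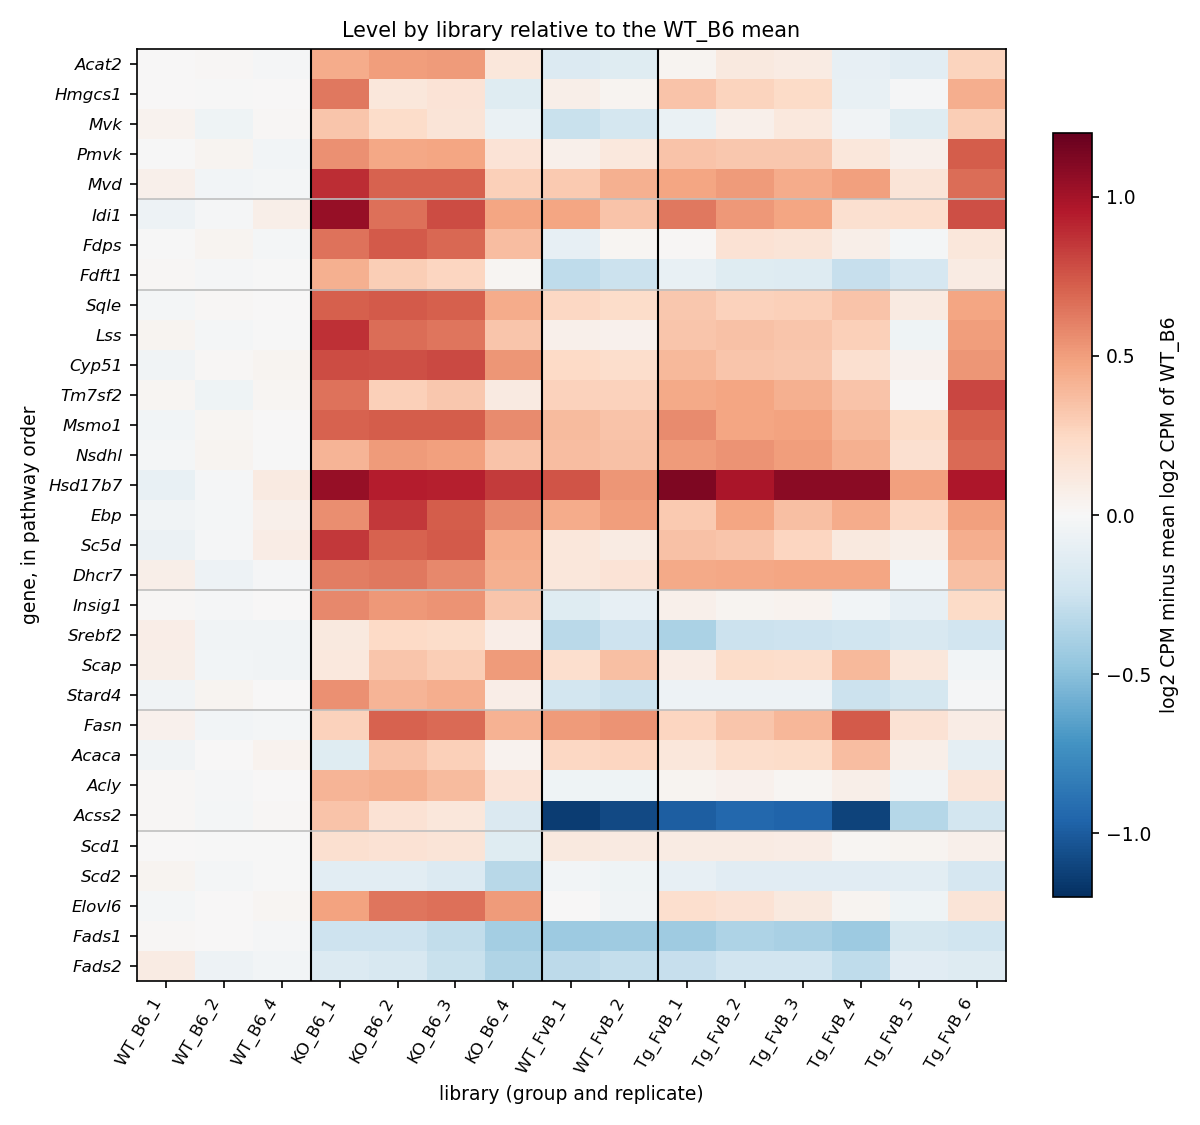
Level of the 31 members (rows, in pathway order) in the 15 libraries (columns) as log2 CPM minus the mean log2 CPM of WT_B6; red is higher and blue lower, and black lines separate the groups. KO_B6 4 is paler than the other knockout libraries in most sterol rows, and Acss2 is dark blue in WT_FvB and in Tg_FvB 1 to 4.

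The size of the knockout difference varied between libraries. Over all 31 members, the median log2 distance from the WT_B6 mean was 0.55 in KO_B6 1, 0.50 in KO_B6 2, 0.49 in KO_B6 3 and 0.28 in KO_B6 4. KO_B6 4 was the lowest knockout library for 26 of the 31 members, and KO_B6 1 was the highest for 17. Within litter 843 (1 wild type and 2 knockouts) 27 of the 31 members were above the wild type in both knockouts and 3 below, with a median log2 ratio of 0.475. Within litter 929, also with 1 wild type and 2 knockouts, 24 were above and 3 below, with a median of 0.42. These are the same libraries as in the comparison itself. With so few libraries in a litter, a gene can easily lie on 1 side by chance. The share of all genes that did so was not computed. With litter as a covariate 20 members were called higher and 2 lower, where 2886 of 15261 genes were higher and 2380 lower.

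Other markers moved with the knockout. The counts below stand beside 24.8% of all genes called higher and 20.9% lower. Of 8 proliferation markers 7 were called higher and 0 lower, and their summed level was 2152 to 2285 CPM in WT_B6 and 2828 to 3526 CPM in KO_B6. Of 8 neural stem and progenitor markers 1 was higher (Nes) and 5 lower (Sox2, Pax6, Vim, Msi1 and Hes5), with sums of 8818 to 8834 and 7272 to 8873 CPM. Of 7 astrocyte markers 0 were higher and 5 lower, and their sum was 857.5 to 864.3 CPM in WT_B6 and 547.6 to 618.3 CPM in KO_B6. The 10 oligodendrocyte-lineage markers (1 higher, 3 lower) and the 7 neuron markers (1 higher, 2 lower) had overlapping sums, at 3109 to 3286 and 2890 to 3409 CPM for the former. The neuron sum, 1147 to 1158 and 1046 to 1168 CPM, was mostly Map2 (mean 1061 and 1068 CPM). Of the called neuron genes, Tubb3 (25.15 to 8.79 CPM) and Dcx (38.5 to 13.9 CPM) fell and Snap25 (2.70 to 5.46 CPM) rose. The part of these markers in the sterol results was not tested.

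Further genes of the pathway were counted from a list of 65, all of which were tested. In the knockout 23 were called higher and 14 lower, where 24.8% of all genes were higher and 20.9% lower, and the median log2 fold change was 0.07. The share called lower was near that of all genes. The 12 genes of SREBP processing and regulation held 5 higher and 0 lower, and the 26 fatty acid partners 12 higher and 6 lower. The 12 genes of sterol storage, transport and efflux held 1 higher and 3 lower. Among the called genes with the largest change were a lipid exporter and a lipid carrier that fell. The cholesterol efflux pump Abca1 went from 131.2 ± 3.51 to 20.5 ± 15.9 CPM (log2 -2.66 ± 0.38), with a wide spread between knockout libraries. The lipoprotein component Apoe went from 1408 ± 37.6 to 278.1 ± 67 CPM (log2 -2.34 ± 0.22). Tmem97, a sterol-responsive membrane protein that binds NPC1, rose from 38.2 to 85.8 CPM (log2 1.17 ± 0.12). Pdss1, which makes the ubiquinone side chain from isoprenoids, rose from 9.77 to 22.0 CPM (log2 1.17 ± 0.14). Mlxipl, a glucose-responsive lipogenic factor, fell from 1.40 to 0.593 CPM (log2 -1.24 ± 0.27).

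In Kat6b transgenic cells no member passed the test. edgeR called 0 of 31 members in either direction, 2 had an unadjusted p under 0.05, and DESeq2 called 0 as well. Over all genes 0.688% were called higher and 1.17% lower. The median log2 fold change of the members was 0.12, against 0.01 over all genes, and 25 of 31 values were positive. Without overlap between groups, 3 members were above (Acat2, Mvk and Acly) and 2 below (Scd1 and Scd2), against 7.97% and 8.01% of all genes. WT_FvB had 2 libraries that were near-identical, which limits this comparison.

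The 2 members with an unadjusted p under 0.05 were Mvk and Hsd17b7. Mvk measured 62.6 and 65.5 CPM in WT_FvB, and its lowest, median and highest Tg_FvB values were 68.3, 76.0 and 92.9 CPM (log2 0.28 ± 0.11, edgeR adjusted p = 0.202). Hsd17b7 measured 58.4 and 49.9 CPM in WT_FvB and 48.5, 70.5 and 74.9 CPM at the lowest, median and highest Tg_FvB library (log2 0.32 ± 0.13, edgeR adjusted p = 0.212). Tg_FvB 5 alone lay below the wild types for Hsd17b7. Without Tg_FvB 5, edgeR called 2 members higher, Hsd17b7 (log2 0.39, adjusted p = 0.0193) and Dhcr7 (log2 0.28, adjusted p = 0.0244). Without both Tg_FvB 5 and 6 the same genes were called (adjusted p = 0.0135 and 0.0136).

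Of the libraries with wild-type column headings, Tg_FvB 5 was the lowest transgenic library for 18 of 31 members, and Tg_FvB 6 the highest for 19. Over all 31 members, the median log2 distance from the WT_B6 mean was 0.07 and 0.10 in the WT_FvB libraries, -0.01 in Tg_FvB 5, 0.26 in Tg_FvB 6 and 0.11 to 0.22 in Tg_FvB 1 to 4. Tg_FvB 5 was thus below its own wild types on this measure, and the other transgenic libraries were above them. Acss2 separated both from the rest: it measured 96.8 and 100.9 CPM in WT_FvB, 107.8, 111.2, 109.4 and 99.0 CPM in Tg_FvB 1 to 4, but 168.8 and 183.1 CPM in Tg_FvB 5 and 6. Fads1 showed the same split, at 658.8, 681.3, 675.8 and 653.7 CPM in Tg_FvB 1 to 4 and 762.8 and 748.8 CPM in Tg_FvB 5 and 6. The cause of this split was not tested.

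Litter 844 holds both WT_FvB and 2 Tg_FvB libraries, and WT_B6 1 by its label. Within it, 23 members were above both WT_FvB libraries in both transgenic libraries and 4 were below, with a median log2 ratio of 0.16. The share of all genes was not computed there. Both pairs of libraries were near-identical (biological coefficient of variation 0.0316 and 0.0415), so a gene can easily lie wholly on 1 side by chance. Litter 873 holds the other 4 Tg_FvB libraries and no wild type, so it gives no value. Of the 65 further pathway genes 0 were higher and 4 lower in the transgenic cells. These were the desaturases Scd4 (log2 -1.87) and Scd3 (log2 -1.45), the malic enzyme Me1 (log2 -0.67), which supplies NADPH, and the sterol esterifying enzyme Soat1 (log2 -0.61).

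**Figure D4:**
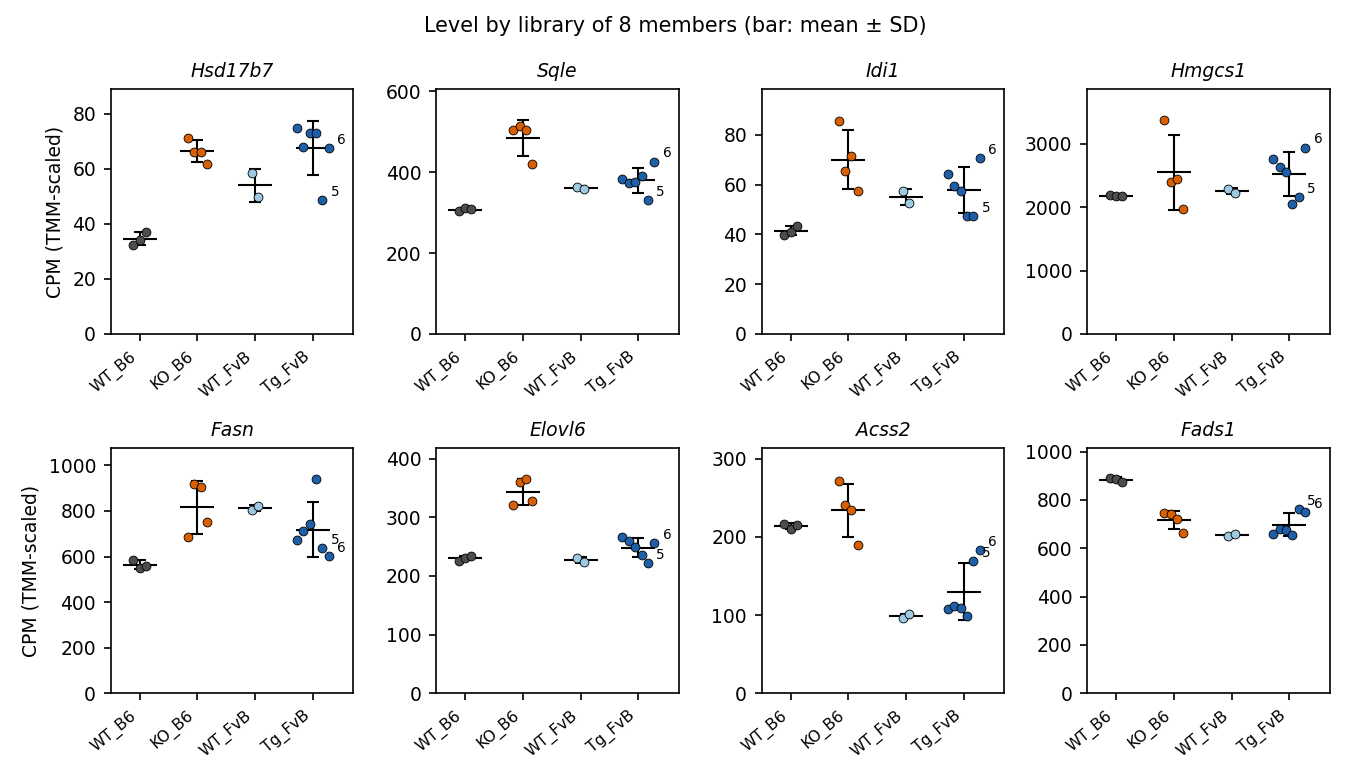
TMM-scaled CPM of 8 members in each library (points) with the group mean and SD (bars), for WT_B6, KO_B6, WT_FvB and Tg_FvB; Tg_FvB 5 and 6 are numbered. Hsd17b7, Sqle, Idi1 and Elovl6 have every knockout point above every WT_B6 point, Fads1 has every one below, and Acss2 shows Tg_FvB 5 and 6 at 168.8 and 183.1 CPM above the other 4.

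The knockout and transgene effects were set against each other by an interaction term in the same edgeR model. The transgene effect was lower than the knockout effect for 14 members and higher for 2, where 19.5% of all genes were lower and 17.8% higher. The median difference over the members was -0.32 on the log2 scale, against -0.01 over all genes. Ebp differed most (log2 -0.76 ± 0.12, edgeR adjusted p = 5.19e-04), having risen in the knockout while it was at 24.4 ± 0.706 CPM in WT_FvB and 23.0 ± 1.53 CPM in Tg_FvB. For Sqle, at 361.4 ± 3.7 CPM in WT_FvB and 380.1 ± 30.4 CPM in Tg_FvB, the difference was -0.59 ± 0.12 (edgeR adjusted p = 0.00176). Fads1 and Fads2 differed in the other direction (log2 0.39 and 0.33). The term compares effects on different backgrounds, so genotype and background cannot be told apart in it, and with litter as a covariate it called 5 members lower and 0 higher. With near-identical libraries summed it called 0 in either direction, and without WT_FvB 1 it called 9 lower and 1 higher.

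The 2 wild types also differed from each other, but the members were called less often than all genes tested. WT_FvB was higher than WT_B6 for 6 members (Mvd, Msmo1, Nsdhl, Hsd17b7, Ebp and Fasn) and lower for 5 (Fdft1, Srebf2, Acss2, Fads1 and Fads2), against 25.4% and 23.5% of all genes, with a median of 0.10. Hsd17b7 was at 34.6 ± 2.32 CPM in WT_B6 and 54.1 ± 6.00 CPM in WT_FvB (log2 0.64 ± 0.14, edgeR adjusted p = 0.00195). Acss2 moved most, from 213.6 ± 3.58 to 98.9 ± 2.89 CPM (log2 -1.11 ± 0.23, edgeR adjusted p = 0.00149). Without WT_FvB 1, 2 members were higher and 3 lower, and with near-identical libraries summed 0 were called in either direction. In this comparison strain, litter and culture cannot be told apart. It shares the WT_B6 libraries with the knockout comparison, so their values are only set side by side: the WT_FvB mean was nearer to KO_B6 than to WT_B6 for 13 of the 31 members, and for 8 of the 22 that rose in the knockout. The summed proliferation markers were 2904 to 2934 CPM in WT_FvB and 2343 to 3081 CPM in Tg_FvB, and the summed astrocyte markers 1708 to 1714 and 829.8 to 1165 CPM. Their part in these differences was not tested.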

How the data were processed

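The deposited files hold raw counts per gene for 15 libraries, made by the authors with bcl2fastq and featureCounts on mm10, per the submitters' processing notes. The sources used here name no aligner, annotation, strandedness or version. The deposited gene length was used only for levels per kilobase. Entries without a gene name (917 per file, 0.450% to 0.545% of counts) were left out.

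Groups follow the genotype and background fields. edgeR 4.0.16 (R 4.3.3, limma 3.58.1) fitted all 15 libraries with 1 coefficient per group, TMM scaling and filterByExpr at a minimum count of 10, which kept 15261 genes and removed 11002. Quasi-likelihood F-tests were adjusted by Benjamini-Hochberg over those genes, with a threshold of 0.05. Standard errors were derived from the F statistic. CPM values are mean ± SD. Libraries were called near-identical under a biological coefficient of variation of 0.05.

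All 31 members could be named, with up to 6 called genes of the other pathway list per Kat6b comparison, Kat6b, and marker genes; 1 of these genes is not reported here. Members and lists were chosen with earlier results of these data known. Alternatives were other scalings (RLE, upper quartile), no filter, DESeq2 1.42.0, fewer groups, litter or replicate terms, summed or omitted libraries. Replicate numbers showed no clear pairing of the samples.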

Additional observations from a re-analysis of the deposited data

Results flagged for a closer look

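Single libraries stood apart from the rest of their group for 6 of the 62 sets of values examined (31 members in KO_B6 and in Tg_FvB), judged by the gap to the nearest library over the range. For independent libraries chance gives about 1 in 20, or 3.1 of 62. Some libraries of both groups are near-identical and the members are not independent, so 3.1 is not a fair measure for the 6 seen. KO_B6 4 was below the other knockouts for Sqle (419.6 CPM, the others 503.8 to 513.2), for Cyp51 (608.2 CPM, the others 719.3 to 726.9) and for Scd1 (765.3 CPM, the others 940.4 to 964.8). Tg_FvB 5 was below the other transgenic libraries for Hsd17b7 (48.5 CPM, the others 67.4 to 74.9) and for Dhcr7 (246.2 CPM, the others 322.8 to 350.1). Tg_FvB 6 was above the others for Pmvk, at 119.5 CPM against 75.3 to 91.8.

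The transgene effect differed from the knockout effect, by the interaction term of edgeR's model at an adjusted p under 0.05, for 16 members. The shares over all genes were 19.5% lower and 17.8% higher. On the log2 scale the transgene effect was lower for the sterol enzymes Ebp (-0.76), Idi1 (-0.68), Cyp51 (-0.64), Hsd17b7 (-0.62), Sqle (-0.59), Mvd (-0.57), Msmo1 (-0.56), Sc5d (-0.54) and Fdps (-0.49). It was lower for the regulators Scap (-0.43) and Insig1 (-0.34), and for the fatty acid genes Fasn (-0.71), Elovl6 (-0.45) and Acly (-0.25). It was higher for the desaturases Fads1 (0.39) and Fads2 (0.33). The effects were measured on different backgrounds, and with litter as a covariate 5 members were called lower and 0 higher.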

How the results depend on the processing

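The median log2 fold change of the members kept its sign in every alternative run, as did each single gene followed. Every member was followed in the knockout, but only Mvk and Hsd17b7 with the transgene. Between the wild types Acss2, Fasn, Hsd17b7, Mvk, Fads1 and Fads2 were followed, and no single gene for the difference of the effects. Over all genes, leaving out each library gave 2767 to 3529 higher and 2592 to 3633 lower in the knockout. In the knockout, 18 to 24 members were higher and 2 to 3 lower when each library was left out, and only summing near-identical libraries moved the counts by over 1.5 times, to 0 and 0. For the transgene, 2 members were called higher without Tg_FvB 5 and 6, and 0 to 2 when each library was left out. Over all genes, transgene calls (105 higher, 178 lower) became 354 and 367 with DESeq2, 3 and 7 with only these groups, 6 and 4 with litter, 0 and 0 summed, and 216 and 422 without Tg_FvB 5 and 6. They were 2 to 963 and 0 to 800 when each library was left out, highest without Tg_FvB 4 and lowest without either WT_FvB library. For WT_FvB against WT_B6 with only these groups fitted, 5176 of 14351 genes were higher and 5174 lower. Without Tg_FvB 5 and 6, 4288 of 15215 genes were higher in that comparison. Members higher and lower were 15 and 9 with only these groups fitted. They were 0 and 0 with libraries summed (median 0.0691), 2 higher with litter (median 0.0765) and 10 higher without Tg_FvB 5 and 6. Leaving out each library gave 2 to 5 higher, 3 to 4 lower and a median of 0.0563 to 0.103. For the difference of the effects, litter gave 0 higher and 5 lower, summing gave 0 and 0, and leaving out each library gave 1 to 2 higher and 9 to 18 lower. Without WT_FvB 1 it gave 1 and 9, and over all genes 1705 and 1893 (1745 and 1911 without WT_FvB 2), against 2712 and 2983. With litter, all-gene calls were 1282 and 1580 for the difference and 1911 and 1992 for the wild types (3872 and 3584), which were 2713 and 2349 without WT_FvB 1 and 2668 and 2387 without WT_FvB 2. Summing gave 0 for all of these. Leave-one-out fits with 1 WT_FvB library assume that it varies like the other groups. With litter as a covariate, the wild types were linked only through WT_B6 1. Its litter label (844) is the one it shares with the WT_FvB libraries, so the wild-type values with litter rest on that label.

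Libraries of the same replicate number hardly deviated together (correlations of deviations from -0.02 to 0.08). No WT_B6 library correlated best with the knockout of its own number. WT_FvB 1 did correlate best with Tg_FvB 1 (0.08), and WT_FvB 2 did not with Tg_FvB 2. The wild-type libraries within each background were near-identical, so this check could hardly show a pairing. With the replicate number as a block, 22 members were called higher and 3 lower in the knockout, where 4158 genes were higher and 3657 lower. In the same fit 2 members were higher with the transgene, where calls over all genes were 808 higher and 769 lower.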
